A study of Homo sapiens with 11 samples.

Results

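FOS occupancy was compared with acetylation of histone H3 at lysine 27 (H3K27ac) in control cells of CFPAC1, a human cell line from pancreatic ductal adenocarcinoma. Chromatin immunoprecipitation followed by sequencing (ChIP-seq) gave 2 peak lists of FOS, with 29087 and 36349 peaks, and 2 of H3K27ac, with 116466 and 109352 peaks. A FOS site was a merged interval that held a FOS peak of both libraries, and 26211 of 38107 merged FOS intervals met that rule. The lists of all CFPAC1 and HPAF2 libraries in the series together held 526150 peaks. Per the labels, FOS and H3K27ac were mapped in clonal CFPAC1 cells isolated by dilution after infection with a lentiviral CRISPR plasmid, here called the control clone. The knockout clone received the same plasmid with wild-type Cas9 and a guide against MYRF, a transcription factor that the study title ties to homeostasis of the endoplasmic reticulum. The titles of the control H3K27ac libraries read MYRFWT, for wild-type MYRF, and the FOS titles name no MYRF genotype. MYRF itself was mapped in the original CFPAC1 line. Cells were grown in IMDM with 10% serum and fixed for 10 min in 1% formaldehyde, and 10 µg of antibody was used per precipitation. A clone is 1 cell's progeny, the labels do not say that FOS and H3K27ac came from the same clone, and they do not say whether the 2 replicates were separate cultures.

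FOS is a basic leucine zipper protein that pairs with JUN proteins to form AP-1, a transcription factor induced by growth factor and stress signals. The known AP-1 sites fit the pattern TGANTCA, though not every match to it need be one. AP-1 is known for its sites in enhancers, where it acts with chromatin-remodelling complexes. H3K27ac is written by the acetyltransferases p300 and CBP on nucleosomes next to active promoters and enhancers, while the factor-bound DNA between those nucleosomes is often depleted of histones. The 2 maps therefore measure neighbouring things: a protein on DNA, and a mark on the nucleosomes beside it.

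The DNA under FOS can be shown where its summit, the base of highest enrichment in the peak, lay in a RefSeq promoter window (GRCh38.p14, 250 bases before to 50 after a gene's start). That was so for 376 of 22199 windows, of which 342 (91.0%) overlapped FOS sites with H3K27ac in both libraries. The 8 windows below belong to different genes and had the FOS sites of highest rank among those with H3K27ac and with TGANTCA before the start. Each line is an 87-base stretch of the gene's own strand around the motif nearest the summit, with each TGANTCA in capitals.
HRH1: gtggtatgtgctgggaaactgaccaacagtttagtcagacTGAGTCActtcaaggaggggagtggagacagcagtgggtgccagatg
SPATA12: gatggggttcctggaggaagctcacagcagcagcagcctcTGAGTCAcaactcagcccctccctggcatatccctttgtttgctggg
ALOXE3: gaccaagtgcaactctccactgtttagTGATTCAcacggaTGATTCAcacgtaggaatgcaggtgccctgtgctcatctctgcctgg
MBNL2: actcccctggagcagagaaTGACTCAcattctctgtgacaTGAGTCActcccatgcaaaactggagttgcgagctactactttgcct
NIBAN2: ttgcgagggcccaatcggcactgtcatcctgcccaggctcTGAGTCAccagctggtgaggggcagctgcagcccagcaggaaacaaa
DHRS9: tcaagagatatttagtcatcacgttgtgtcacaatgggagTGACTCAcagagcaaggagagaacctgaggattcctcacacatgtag
SEPTIN9: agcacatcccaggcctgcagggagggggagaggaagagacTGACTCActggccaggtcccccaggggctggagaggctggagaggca
GPN1: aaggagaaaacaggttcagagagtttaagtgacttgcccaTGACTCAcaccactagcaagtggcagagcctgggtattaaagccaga

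The stretches lie at chr3:11137127-11137213 (plus strand) for HRH1, the histamine H1 receptor, and at chr3:57060503-57060589 (plus) for SPATA12. ALOXE3, an epidermal lipoxygenase, lies at chr17:8118461-8118547 (minus), and MBNL2, a splicing regulator, at chr13:97141729-97141815 (plus). NIBAN2 lies at chr9:127579119-127579205 (minus) and DHRS9, a retinol dehydrogenase, at chr2:169069475-169069561 (plus). SEPTIN9, a cytoskeletal GTPase, lies at chr17:77450651-77450737 (plus) and GPN1, another GTPase, at chr2:27628142-27628228 (plus). The middle base of that motif was 4 to 80 bases from the FOS summit, with 4 in MBNL2, 16 in HRH1 and 80 in SEPTIN9. ALOXE3 and MBNL2 held 2 copies. Both of ALOXE3 read TGATTCA, whereas all other copies shown had C or G as the middle base.

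H3K27ac at these 8 promoters was not in the order of the FOS fold, the authors' enrichment over background at the summit. In bulk chromatin, fewer cells with a signal and less signal per cell cannot be told apart. HRH1 had FOS folds of 25.2 and 28.2 in the 2 libraries and H3K27ac folds of 7.24 and 8.19. NIBAN2 had lower FOS folds of 13.9 and 17.7 and higher H3K27ac folds of 25.9 and 25.6. At MBNL2 (FOS 15.2 and 17.1) and SPATA12 (20.4 and 23.3) the FOS summit lay in a gap between a pair of H3K27ac peaks in both libraries, with H3K27ac folds of 15.3 and 14.8 at MBNL2. At HRH1, ALOXE3, NIBAN2, SEPTIN9 and GPN1 it lay inside an H3K27ac peak in both.

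TGANTCA, a pattern that reads the same on both strands, was searched with any base as N. It was in 182 of the 376 promoter windows with a FOS summit (48.4%, 95% interval 43.4 to 53.4). Where any part of a FOS site overlapped the window, it was in 360 of 1335 (26.97%). It was in 1366 of all 22199 windows (6.15%) and in 342 of 11334 windows in an H3K27ac region without a FOS site (3.02%). Among windows whose FOS site was in the top 2 deciles of rank, 36 of 51 held it (70.6%), against 32 of 90 in the bottom 2 (35.6%). The reshuffled palindrome ACTNAGT, searched as a control, was in 7.18% of windows with a FOS summit and 3.85% of all windows. TGACGTCA, the CRE word bound by CREB and ATF proteins, was in 2.39% and 2.26%. On either strand, CCAAT was in 30.3% against 34.7% and GGGCGG in 45.7% against 56.3%. The median distance from the summit to the nearest TGANTCA was 62.5 bases over the 182 windows, and 73 of them (40.1%) had it within 50 bases, against 36.0% for CCAAT. A match describes these letters in the window and no more.

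Before the comparison, the replicates were set side by side. Of the peaks of FOS replicate 1, 92.8% overlapped a peak of replicate 2, and 73.0% the other way. All peaks of the top decile by fold were found in the other list, in both directions, whereas of the bottom decile 82.7% of replicate 1 and 39.4% of replicate 2 were. H3K27ac peaks overlapped in 75.4% and 81.5%. FOS sites were ranked by the mean of their 2 within-list percentiles of fold, and Spearman's rho between the replicates' percentiles was 0.80 over the 26211 sites, a description that shares peak widths and background between the lists. Folds ran from 2.14 to 49.0 in replicate 1 and from 2.00 to 53.4 in replicate 2.

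H3K27ac peaks of both control libraries overlapped 18708 of the 26211 FOS sites by at least 1 bp (71.4%, 95% Wilson interval 70.8 to 71.9), and these are called acetylated sites. Another 2668 sites (10.2%) had a peak of 1 library only, and 4835 (18.4%) had none. In the 4 pairs of a single FOS list and a single H3K27ac list, 76.8, 70.5, 73.6 and 67.2% of FOS peaks were overlapped, so the spread between libraries was wider than the counting interval. Bases covered by H3K27ac peaks of both libraries made up 2.71% of the genome spanned by the lists, and H3K27ac peaks of the 2 libraries covered 9.36 and 9.15% of positions 20 kb after the FOS summits and 9.89 and 9.51% of those 20 kb before them. The share with the FOS summit itself inside a peak of both libraries was lower, 12189 sites or 46.5%.

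The 10 acetylated sites of highest rank away from gene ends (over 1 kb from either end of a protein-coding gene) had FOS folds of 30.4 to 46.5 in replicate 1 and 36.0 to 51.7 in replicate 2. Their H3K27ac was not uniformly strong. The site inside DVL1, a Wnt pathway adaptor, at chr1:1344099-1345786 had FOS folds of 46.5 and 47.7 and H3K27ac folds of 15.3 and 20.9. A site inside UBTD1 at chr10:97541948-97543824 had FOS folds of 41.8 and 51.7 and H3K27ac folds of 24.9 and 34.9. Both summits lay inside broad H3K27ac peaks of 3084 to 5904 bp.

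NPFFR2, a neuropeptide receptor gene, and LUZP2 held FOS sites of almost the same rank in weaker H3K27ac. The NPFFR2 site, at chr4:72112030-72113487, had FOS folds of 37.1 and 42.1 and H3K27ac folds of 7.59 and 6.74. At LUZP2, chr11:25065406-25066396, FOS folds were 35.6 and 40.2 and H3K27ac folds 9.67 and 5.54. In both, the FOS summit lay in a gap between H3K27ac peaks in both libraries, 361 and 384 bp wide at NPFFR2 and 382 and 438 bp at LUZP2. The other sites were near OTUD7B, a deubiquitinase gene, LOC124903407, SHANK2 and BCL9L, a beta-catenin coactivator gene, and 2 had no gene end within 50 kb.

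**Figure D1:**
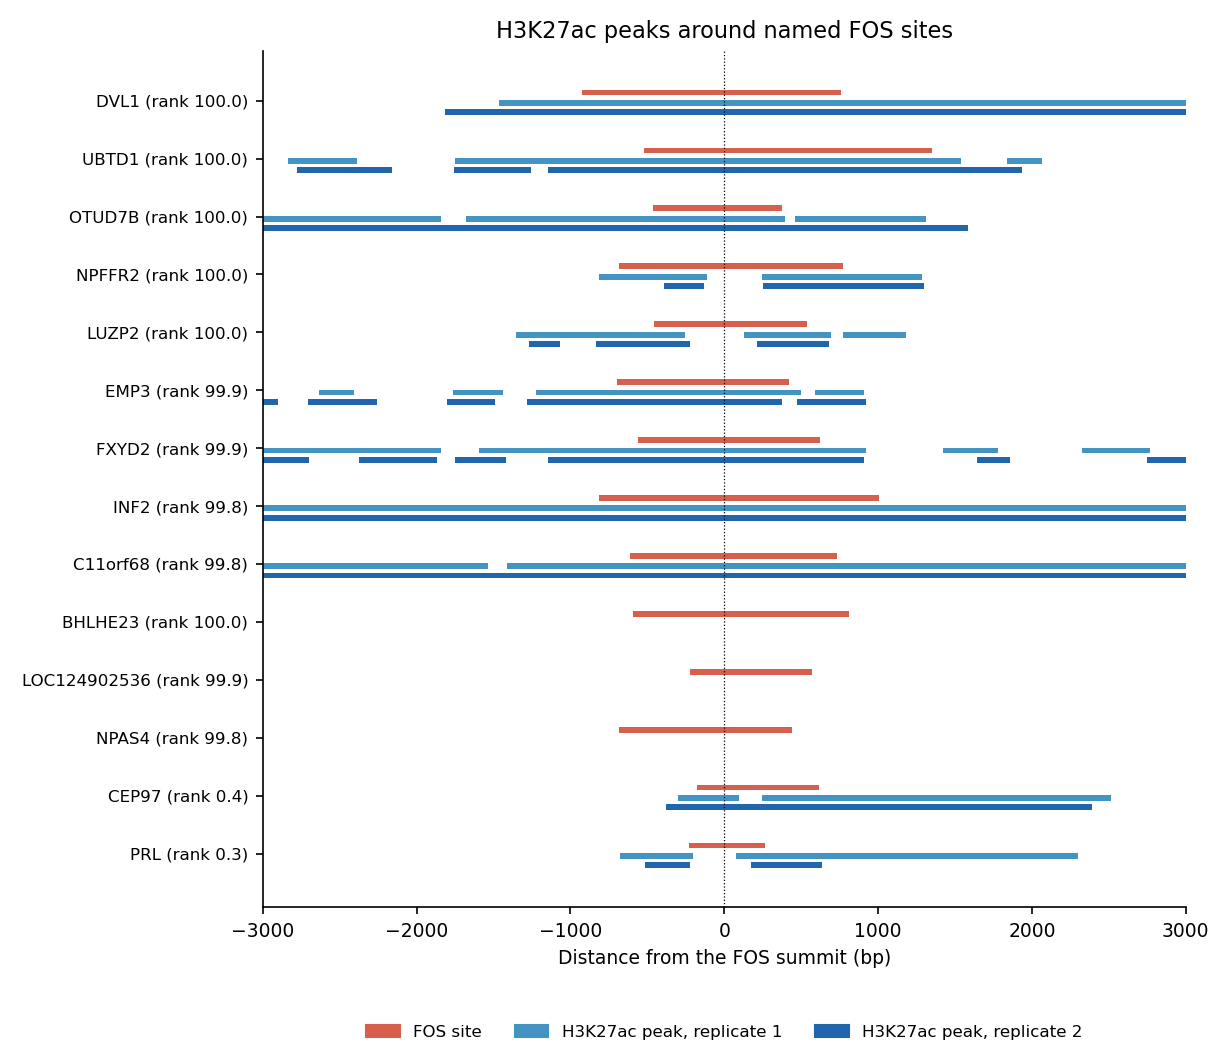
Positions of the FOS site (red) and of the H3K27ac peaks of replicates 1 and 2 (blue bars) around the FOS summit, in bp from the summit, for 14 named sites with their FOS rank. EMP3, FXYD2, INF2 and C11orf68 are strong sites at gene ends with the summit inside an H3K27ac peak of both libraries, and CEP97 and PRL are weak sites. NPFFR2, LUZP2 and PRL have a gap at the summit in both H3K27ac libraries, INF2 is covered throughout, and BHLHE23, LOC124902536 and NPAS4 have no H3K27ac peak in the 3000 bp to either side.

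At gene ends the strongest acetylated FOS site was at EMP3, a tetraspan membrane protein gene, with FOS folds of 29.9 and 34.6 and H3K27ac folds of 15.3 and 19.4. FXYD2, a regulatory subunit of the sodium pump, had FOS folds of 28.4 and 30.9 and H3K27ac folds of 21.1 and 21.1. INF2, a formin that nucleates actin, had FOS folds of 25.8 and 30.3 and H3K27ac folds of 32.4 and 40.8 in peaks of 7166 and 7526 bp. Others among the 10 were C11orf68, HRH1, CIB3, YJU2B, LOC124902669 and GLRX5.

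The strongest FOS site of all had no H3K27ac. It lay between genes at chr20:63056664-63058063, with FOS folds of 49.0 and 53.4, and the nearest gene end, that of the basic helix-loop-helix gene BHLHE23, was 49700 bp away. The nearest H3K27ac summits were 45143 and 45208 bp from it. The next sites without an H3K27ac peak were near LOC124902536 (FOS folds 27.7 and 35.3), in NPAS4, an activity-induced neuronal transcription factor gene (25.0 and 32.4), and in ICA1L (23.4 and 29.3), followed by DBNDD1, CFAP99 and 2 sites without a gene end within 50 kb. At the ICA1L site 1 H3K27ac library had a peak beside the interval, with its summit 746 bp from the FOS summit, and the other had none nearer than 77280 bp. Over the 4835 sites without H3K27ac, the median distance to the nearest H3K27ac peak was 14730 bp in replicate 1 and 20589 bp in replicate 2, and 58.6 and 66.1% lay over 10 kb away. These sites had lower ranks than acetylated ones, with a median of 46.9 against 60.5.

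At the other end of the ranking, the 5 acetylated sites of lowest FOS rank had H3K27ac ranks (mean within-list percentiles) of 44.9 to 95.8, on both sides of the median of 80.5 over acetylated sites. The site at the end of CEP97, a centrosomal protein gene, had FOS folds of 2.44 and 2.56 and H3K27ac folds of 12.4 and 24.0. A site by OTUD7B, at chr1:149937638-149938029, had FOS folds of 2.16 and 2.60 beside H3K27ac folds of 14.6 and 26.8, in the same H3K27ac peaks as the top-ranked OTUD7B site (FOS 38.7 and 47.2). The PRL site, near the prolactin gene, had FOS folds of 2.31 and 2.58 and H3K27ac folds of 7.48 and 3.84. A site at chr1:218621209-218621575, without a gene end within 50 kb, had FOS folds of 2.31 and 2.43 and H3K27ac folds of 6.51 and 7.46, and the last of the 5, on chromosome 7, had H3K27ac folds of 16.9 and 8.74.

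Stronger FOS sites were acetylated more often. In the weakest decile of FOS rank 1703 of 2621 sites were acetylated (65.0%, 63.1 to 66.8) and in the strongest decile 2261 of 2622 (86.2%, 84.9 to 87.5). The weakest 1 in 10 peaks of single lists were overlapped in 72.9, 65.4, 67.9 and 60.9% and the strongest in 90.6, 85.7, 91.2 and 86.1% over the 4 library pairs, so the groups did not overlap. By chromosome, the top 2 deciles of FOS rank exceeded the bottom 2 on 22 of 23 chromosomes, chromosome 22 being the exception.

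The size of the difference between the strongest and weakest FOS decile depended on what counted as H3K27ac at a site. Strong FOS sites were wider, with a median of 1063 bp in the top and 477 bp in the bottom decile, and with a window of 1000 bp around every summit the shares were 86.7 and 69.5%. With the summit inside an H3K27ac peak of both libraries they were 48.4 and 43.7%, a difference of 4.75 points in place of 21.3. With FOS peaks of a -log10 q of at least 10 only, the difference was 7.86 points.

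Within 1 kb of a gene end, 2022 of 2241 FOS sites were acetylated (90.2%, 88.9 to 91.4), and away from gene ends 16686 of 23970 (69.6%, 69.0 to 70.2). In the 4 library pairs the shares at gene ends were 92.6, 90.5, 91.3 and 89.9% and those away 75.4, 68.6, 71.7 and 64.9%. The odds ratio was 4.03 (95% interval 3.50 to 4.65), and 4.31 (3.74 to 4.97) as a Mantel-Haenszel estimate over the deciles of FOS rank. It depended on the definition, at 2.12 with gene ends within 5 kb and 6.36 with gene starts only. Gene ends had the higher share on all 23 chromosomes. At gene starts alone 93.6% were acetylated, and at gene ends that were no start 81.1%. Inside genes the share was 71.0%, between genes 68.2%, and over 50 kb from any gene end 65.8%. On the 2 sides of the 1 kb limit, sites at 801 to 1000 bp had 89.3% and those at 1001 to 1200 bp 79.6%.

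In percentage points, the share changed less between the weakest and strongest FOS decile at gene ends, where it started higher. At gene ends the weakest and strongest deciles had 90.3% (86.2 to 93.3) and 93.8% (88.7 to 96.7), intervals that overlapped. Away from gene ends they had 62.1% (60.1 to 64.0) and 85.8% (84.4 to 87.1). The difference between these differences was not tested.

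**Figure D2:**
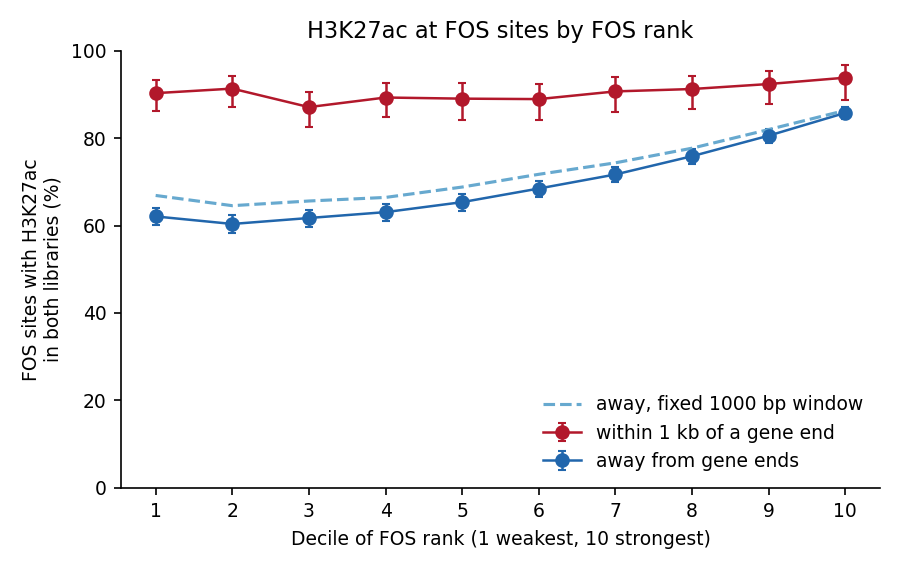
Share of FOS sites with an H3K27ac peak of both libraries (%), by decile of FOS rank, at gene ends (red) and away from them (blue), with 95% Wilson intervals. The dashed line uses a 1000 bp window around each summit for sites away from gene ends. Away from gene ends the share goes from 62.1% to 85.8%, and at gene ends it stays near 90.2%.

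Among acetylated sites, FOS rank and H3K27ac rank were only loosely related. The H3K27ac rank was the mean within-list percentile of the strongest overlapping peaks. Its median was 80.5 over 18708 acetylated sites, 78.0 in the weakest FOS decile and 86.4 in the strongest. Spearman's rho was 0.13 over those sites, 0.16 away from gene ends and 0.06 at gene ends, and between single libraries it lay between 0.10 and 0.15. These are descriptions over sites that share libraries and, for neighbours, H3K27ac peaks. H3K27ac peak width had a rho with FOS rank of 0.066 in replicate 1 and 0.046 in replicate 2, while FOS site width had one of 0.585 with FOS rank. With H3K27ac rank, FOS site width had a rho of 0.22, with 0.25 away from gene ends and 0.12 at them. A wider site can overlap more H3K27ac peaks, of which the strongest was taken, so the relation of the 2 ranks is not free of site width. Sites at gene ends had a median H3K27ac rank of 89.9 and those away one of 78.9.

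Most FOS summits of acetylated sites lay over 100 bp from the nearest H3K27ac summit. The median distance to the nearest H3K27ac summit was 337 bp in replicate 1 and 344 bp in replicate 2 over the acetylated sites. The FOS summits of the replicates were a median of 55 bp apart, and the H3K27ac summits of shared peaks 105 bp apart, so the distance exceeded the spread between replicates. It was not compared with that of other positions in the same H3K27ac peaks. The strongest overlapping peaks had median widths of 1551 and 1372 bp. The median distance was 311 and 318 bp in the weakest FOS decile and 380 and 388 bp in the strongest. The share within 100 bp was 14.4 and 6.68% there in replicate 1. At gene ends the medians were 276 and 284.5 bp with 24.6% within 100 bp, and away from them 340.5 and 349 bp with 10.6%.

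Over all ranks together, the profile around FOS summits had a dip away from gene ends and none at them. Away from gene ends, H3K27ac peaks covered 54.6% of summits in replicate 1 and 47.8% in replicate 2, against 64.9 and 58.3% of positions 400 bp before the summit, counted along the chromosome, and 65.1 and 58.4% of those 400 bp after it. In the strongest decile the coverage was 58.8 and 51.0% at the summit and 81.9 and 74.6% at 400 bp before it. In the weakest decile it was 50.4 and 43.2% at the summit and 58.7 and 51.8% at 400 bp before it. At gene ends coverage was 83.8 and 82.2% at the summit, above the 76.2 and 76.3% at 400 bp before it. Summits of H3K27ac peaks followed: per 100 sites of the strongest decile away from gene ends, 2.83 lay in the 100 bp step at the FOS summit and 12.4 in the step 400 bp before it in replicate 1. At gene ends 12.4 lay at the summit and 6.29 in the step 400 bp before it. The profile at gene ends was not split by rank. The median distance to the nearest H3K27ac summit there was 235.5 and 245.5 bp in the weakest decile. In the strongest it was 370 and 379 bp, over 137 acetylated sites.

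**Figure D3:**
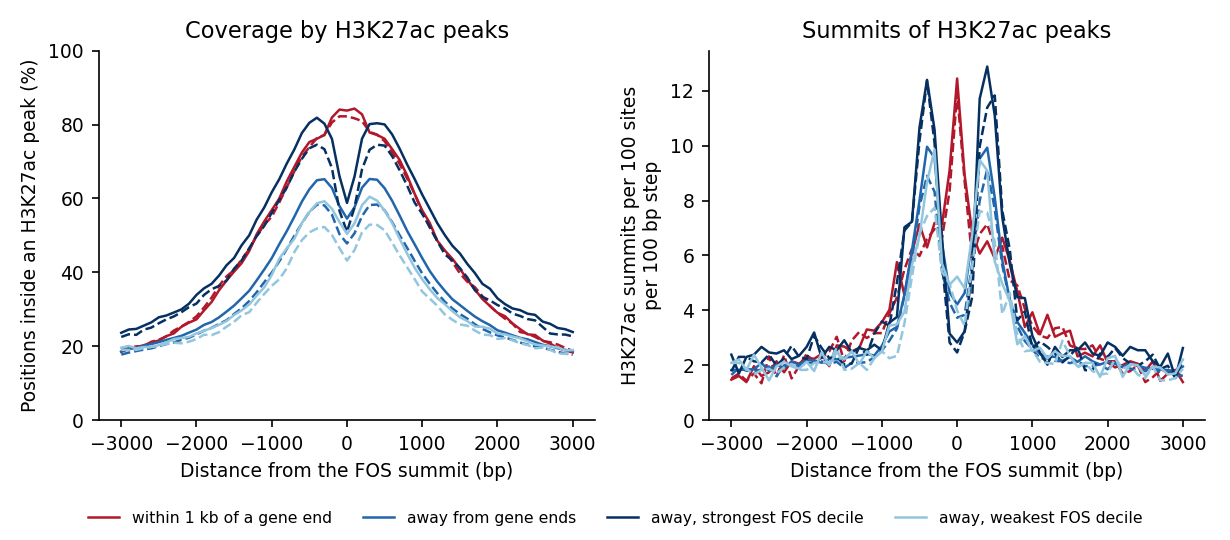
Share of positions inside an H3K27ac peak (left, %) and H3K27ac summits per 100 FOS sites in each 100 bp step (right), by distance from the FOS summit in bp. Solid lines are H3K27ac replicate 1 and dashed lines replicate 2. The blue lines away from gene ends dip at 0, most in the strongest decile (58.8% at 0 and 81.9% at 400 bp before it in replicate 1). The red lines at gene ends, not split by rank, have their highest values near 0.

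The dip held many sites where the FOS summit lay between a pair of H3K27ac peaks, each with an edge within 1 kb of it. Away from gene ends 18.0% of sites in replicate 1 and 17.1% in replicate 2 were of that kind. The share was 16.4 and 16.1% in the weakest FOS decile and 27.2 and 28.3% in the strongest, a difference larger than that between the libraries. The summit lay inside a peak in 50.4 and 43.2% of the weakest and 58.8 and 51.0% of the strongest. At gene ends 6.78 and 6.20% of sites lay between peaks. There the weakest decile had 7.09 and 5.22%, and the 146 sites of the strongest had 13.0 and 9.59%. The gap had a median width of 280 bp in replicate 1 and 303 bp in replicate 2 away from gene ends. In both libraries at once, 2440 of all sites lay between peaks (9.31%), with 454 of 2622 in the strongest decile (17.3%) and 224 of 2621 in the weakest (8.55%).

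**Figure D4:**
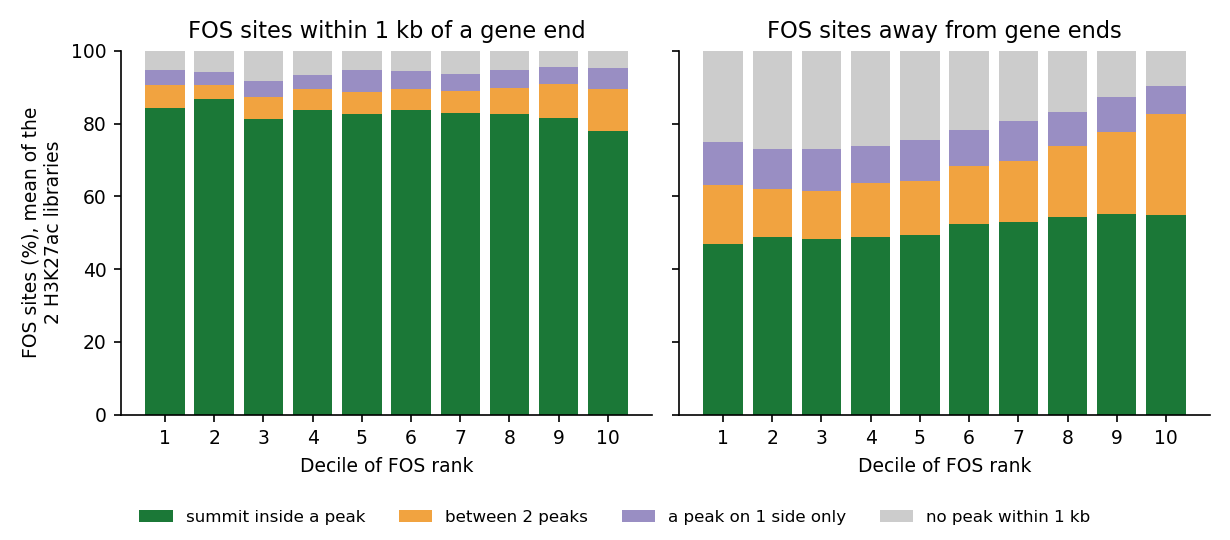
Place of the FOS summit against H3K27ac peaks by decile of FOS rank, as the mean share over the 2 H3K27ac libraries (%), at gene ends (left) and away from them (right). Bars stack the summit inside a peak, between 2 peaks with edges within 1 kb, with a peak on 1 side only, and with no peak within 1 kb. On the right the share between peaks goes from 16.4 and 16.1% in the 2 libraries at decile 1 to 27.2 and 28.3% at decile 10.

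Seen from H3K27ac, 75008 merged regions held a peak of both control libraries, and 21155 of them held a FOS site (28.2%, 27.9 to 28.5). The share went from 13.0% in the weakest decile of H3K27ac rank to 53.0% in the strongest. Strong regions are longer, with medians of 463 bp in the weakest decile and 2656 bp in the strongest. Per kb of region the number of FOS sites was 0.25 in the weakest and 0.20 in the strongest, the reverse order. That number counts every site that overlaps a region by 1 bp but divides by region length alone, which raises it in short regions. It therefore cannot show that FOS sites are denser in weak regions. Regions away from gene ends held a FOS site in 32.3% of cases and those at gene ends in 15.0%, although FOS sites at gene ends were the more often acetylated. In the strongest decile these shares were 71.6 and 31.2%.

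Regions were also split into 5 equal classes by width and, within each, into 5 by H3K27ac rank. Away from gene ends, among regions of 200 to 498 bp, 21.3% of the strongest class by rank and 10.9% of the weakest held FOS, and among those of 749 to 1132 bp 41.5 and 21.0%. The widest class, 1893 to 25402 bp, is not of like width, and there it was 80.7 and 45.9%, with 0.20 and 0.19 FOS sites per kb over all its regions. Over all regions of 200 to 498 bp there were 0.36 and 0.29 per kb. The strongest class by rank had the higher number per kb in every width class. At gene ends the strongest class had the lower share in the 4 narrower width classes, with 2.68 and 6.50% in the narrowest, and the higher one in the widest alone, with 45.5 and 26.7%. Regions with FOS had a median width of 1480 bp and those without 782 bp, and at matched deciles of H3K27ac rank the widths differed by a ratio of 1.28.

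**Figure D5:**
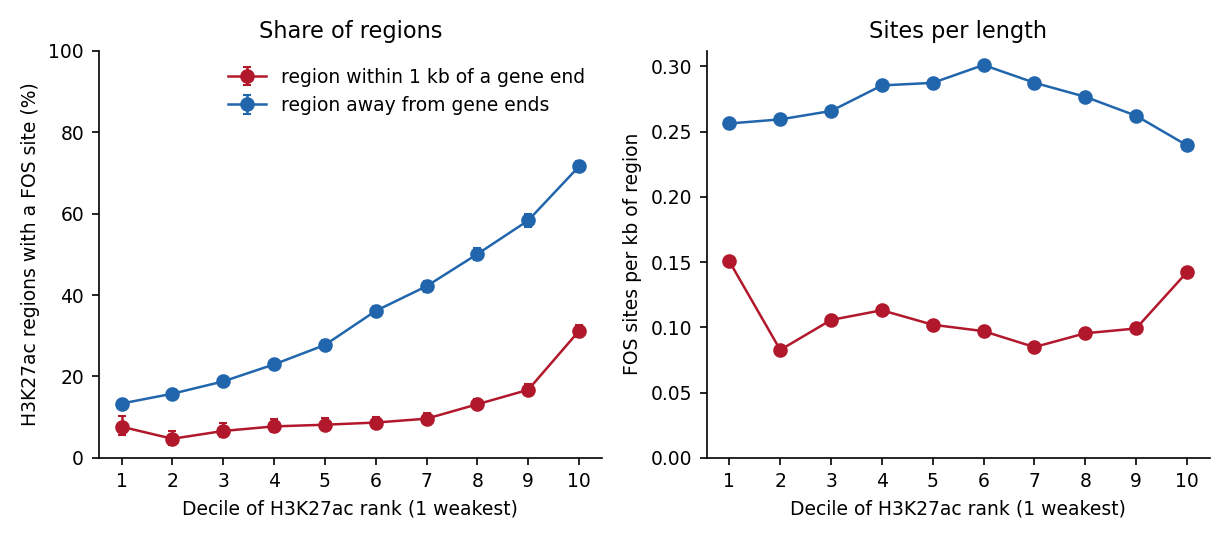
H3K27ac regions with a FOS site (left, % with 95% Wilson intervals) and FOS sites per kb of region (right), by decile of H3K27ac rank, for regions at gene ends (red) and away from them (blue). The share goes up with rank to 31.2 and 71.6%. The number per kb, which divides by region length alone, is no higher in the strongest decile than in the weakest.

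The widest H3K27ac regions held several FOS sites. Regions at TGM2, which encodes a transglutaminase, spanned 25402 and 24786 bp and held 4 and 3 FOS sites. The EPHA2 region, at a receptor tyrosine kinase gene, spanned 22797 bp with H3K27ac folds of 36.1 and 40.9 and held 5. Those of LIF, an interleukin-6 family cytokine, and ACTN4, an actin crosslinker, held 2 each. By contrast, the H3K27ac region at HSPA8, the constitutive HSC70 chaperone, had folds of 51.7 and 47.5, the highest of replicate 1, and no FOS peak of either library. HEXIM2, a regulator of transcription elongation, USP48, NSUN4 and WDR45B had the next such regions, with H3K27ac folds of 31.4 to 34.2 and 39.7 to 44.1. Of all regions, 65.4% were overlapped by no FOS peak of either library, and of the strongest decile 38.5%.

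FOS sites were then read by gene, each assigned to the nearest gene end within 50 kb. Of 20037 protein-coding genes, 7915 had a FOS site (39.5%) and 6243 an acetylated one (31.2%), and the lists below were chosen for this tissue and factor with their members described by counts. Genes of the AP-1 family itself had FOS sites in 11 of 14 cases, and each of the 11 had an acetylated one. FOS had one over its own end, with FOS folds of 6.59 and 8.44 and H3K27ac folds of 16.1 and 21.2. FOSL2, a FOS relative, had 4 acetylated sites, the strongest with FOS folds of 18.3 and 17.0. ATF3, a stress-induced family member, had 5 sites with 4 acetylated, and MAFF, a small MAF protein gene, had all 4 of its sites acetylated with H3K27ac folds of 30.4 and 28.4 at the strongest. JUND, BATF2 and BATF3 had no assigned site.

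Genes known as AP-1 targets had a FOS site in 19 of 20 cases, HMOX1 being the exception, and an acetylated one in 14. VIM, the vimentin gene, had FOS folds of 25.0 and 24.7 and H3K27ac folds of 18.0 and 16.3 at its end. PLAU, the urokinase gene, had 6 sites, all acetylated, the strongest with FOS folds of 19.5 and 22.0. The 5 with only FOS sites that were not acetylated were MMP1, MMP3, MMP10, CCND1 and IVL, named after their values were seen. MMP10, a stromelysin gene, had FOS folds of 8.58 and 8.54 at its end, with an H3K27ac fold of 2.30 in 1 library and no H3K27ac peak over the site in the other. MMP1, the interstitial collagenase gene, had FOS folds of 3.66 and 5.48 and no H3K27ac peak within 1 kb of the summit in either library, whereas MMP13, in the same gene cluster, had 7 sites, all acetylated.

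Laminin and integrin genes, which build and bind the basement membrane, had acetylated FOS sites in 15 of 16 cases, with ITGB4 lacking a site. Of their 72 FOS sites 66 were acetylated (91.7%), beside 12099 of 16162 over all genes (74.9%). That share was not particular to them, since 28 of 30 sites of AP-1 subunit genes (93.3%), 34 of 37 of the basal-like program (91.9%) and 36 of 38 of ductal markers (94.7%) were acetylated. COL17A1, a hemidesmosome collagen, had FOS folds of 17.6 and 20.3 beside H3K27ac folds of 6.33 and 5.64, whereas ITGA3 had FOS folds of 15.9 and 19.7 beside 23.7 and 32.2. LAMC1 had 9 sites with 8 acetylated. Genes of the basal-like pancreatic cancer program had FOS sites in 13 of 20 cases and acetylated ones in 12. The FGFBP1 site, near the gene for a secreted carrier of fibroblast growth factors, had FOS folds of 32.5 and 31.5 and H3K27ac folds of 30.0 and 29.2, so that both were strong. TNS4, a focal adhesion protein gene, had 5 sites, all acetylated.

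Epithelial and pancreatic transcription factor genes had FOS sites in 17 of 20 cases but acetylated ones in 13, and 42 of their 55 sites were acetylated (76.4%). KLF4 had FOS folds of 20.9 and 21.9 and its summit lay between H3K27ac peaks in both libraries, as did that of FOXA3 (15.2 and 16.5). GRHL2, a grainyhead factor, had all 6 sites acetylated, the strongest with FOS folds of 17.7 and 13.2. GRHL1 had FOS folds of 12.5 and 10.1 and no H3K27ac. HNF4G, OVOL1 and PDX1 had no assigned site. FOXA2, a foregut endoderm factor named after its values were seen, had 3 FOS sites and none acetylated, while H3K27ac was within 1 kb of its gene end.

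Cytosolic ribosomal protein genes had a FOS site in 10 of 30 cases (33.3%), each with an acetylated one, though all 30 had H3K27ac within 1 kb of a gene end, as did 12450 of all 20037 genes (62.1%). Proteasome subunit genes had one in 13 of 28 (46.4%). Both shares lay near the 39.5% of all genes, while 18 of 20 sites of the ribosomal protein genes and 18 of 19 of the proteasome genes were acetylated. Their strongest sites were at RPL3 (FOS folds 16.2 and 16.1), RPS3 and RPL15, and at PSMB7 (15.5 and 18.8), PSMD1 and PSMD11. Among all genes with H3K27ac at an end, 48.3% had a FOS site.

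The cell type was read from H3K27ac within 1 kb of a gene end, which 62.1% of all genes had. Of 10 ductal epithelium markers, 9 had it at a gene end (all but CFTR), and 9 had an acetylated FOS site (all but MUC1). KRT18 had FOS folds of 14.3 and 14.8, CDH1 10.5 and 12.7, and EPCAM 10.8 and 11.4. Of 20 markers of other cell types, 5 had H3K27ac at a gene end (CD3E, CD79A, GFAP, SYP and SNAP25), and the leukocyte gene PTPRC and the hepatocyte gene ALB did not. FOS sites were assigned to 10 of these 20, with 8 acetylated, among them the endothelial genes CDH5 (FOS folds 17.3 and 18.4), VWF and PECAM1, whose gene ends had no H3K27ac. Mesenchymal genes had sites in 8 of 14 cases and acetylated ones in 6, with TGFBI at FOS folds of 22.8 and 24.4 and ZEB1 and FN1 next. The FN1 site had an H3K27ac peak in replicate 1 only. Assignment to the nearest gene end does not show that a site acts on that gene. KRT7, ELF3, SOX9 and AREG stand in 2 lists each.

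MYRF sites of the original CFPAC1 line, 2793 with a peak of both libraries, were the nearest comparison. Of these, 81.0% were acetylated in the control clone, against 71.4% of FOS sites (odds ratio 1.71, 1.55 to 1.89, and 1.74 over deciles of each factor's rank). Their median distance to an H3K27ac summit was 414 and 428 bp, against 337 and 344 bp for FOS. FOS sites that overlapped MYRF sites, 1783 in number, were acetylated in 94.7% of cases and the other 24428 in 69.7% (Mantel-Haenszel odds ratio 6.35, 5.14 to 7.85, over deciles of FOS rank). Away from gene ends 27.6 and 30.8% of those with MYRF lay between a pair of H3K27ac peaks, beside 18.0 and 17.1% of all FOS sites there. Many of them were of high FOS rank, 432 of 1665 in the strongest decile, and within that decile the shares were 30.6 and 34.5% with MYRF and 27.2 and 28.3% over all. MYRF and FOS came from different cells, the original line and a clone, and line and factor cannot be told apart.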

How the data were processed

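ChIP-seq peak lists of FOS and H3K27ac from the CFPAC1 control clone were used, 2 libraries of each, with the MYRF lists of the original line and the H3K27ac lists of the knockout clone for comparison. The submitters' processing notes name MACS2 2.1.0.20150731, Trimmomatic 0.38, SAMtools and Bowtie2 2.2.6, and the build GRCh38 (hg38). The deposited lists give each peak's fold enrichment (a ratio), its -log10 p and -log10 q, a score and a summit offset. They hold no read counts, so the depth of each library is unknown, and the control sample behind the peak calls is not given in the sources used here. Each list came from 1 library, and the lowest -log10 q of the 4 deposited lists lay between 1.30 and 1.32.

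From these, overlapping peaks (1 bp or more) were merged within a target, and an interval with a peak of both replicates was kept. Percentiles of fold were taken within a list and averaged over the replicates. Shares carry Wilson 95% intervals and odds ratios a 95% interval on the log scale, with Mantel-Haenszel odds ratios over 10 deciles of rank. All of these cover counting over sites, not variation between cultures, and sites of 1 genome are no replicates of a condition, so no p-value is printed. The RefSeq gene table and promoter sequences of GRCh38.p14 gave 20037 protein-coding genes and 22199 promoter windows. Sites were placed by coordinates, gene starts were tied to genes by gene identifier, and listed genes were found by symbol. The table of genes has no strand, so a gene end is either end of a gene.

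Sites and genes were named by rank within each class and list, and those named outside that rule are said to be so. A few items so selected are not reported here. The sites, lists and tests were chosen with earlier results of these data known. Alternatives covered the overlap rule, stricter peaks, other ranks, the gene end distance, joined regions and each replicate left out. A fixed window of 1000 bp was added after seeing the data. On simulated data with 20000 sites and a planted odds ratio of 4, all sites were called correctly and the Mantel-Haenszel estimate was 3.93 (95% interval 3.43 to 4.50). The simulated sites were evenly spaced, with a single H3K27ac list of unsplit peaks. That checks the code only and says nothing of calls on the real lists. Overlap counts equalled those of bedtools 2.31.1 in all 4 library pairs. Software was matplotlib 3.10.9, scipy 1.17.1, pandas 2.3.3, numpy 2.4.6 and Python 3.11.15. The HPAF2 lists were used only in the total number of peaks of the series.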

Additional observations from a re-analysis of the deposited data

How the results depend on the processing

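Main values were recomputed under 63 alternatives, of which 35 stayed, 27 moved further and 1 reversed. Staying meant within 1 standard deviation of the 4 library pairs or, for odds ratios, on the same side of 1. Every odds ratio counted as staying, whatever its change in size, so the 35 is a lenient count. The acetylated share of FOS sites was 46.5% with the FOS summit inside an H3K27ac peak, 81.6% with either H3K27ac library, 54.3% with H3K27ac peaks of a -log10 q of at least 10 and 81.3% with FOS peaks of that q. The difference between the strongest and weakest FOS decile was 4.75, 16.0, 23.6 and 7.86 percentage points in the same order, 32.7 when ranked by -log10 q and 17.2 with a fixed window of 1000 bp. Spearman's rho of the FOS and H3K27ac ranks was 0.108 with H3K27ac ranked by -log10 q. The median summit distance was 449 bp to the stricter H3K27ac peaks and 388.5 bp to the strongest overlapping peak. Joining H3K27ac peaks within 1 kb gave a width ratio of 1.47 and a difference of 44.5 points in the share of regions with FOS. For regions not joined, counting FOS sites per kb in place of the share reversed the difference, to -0.0478. Since that number is raised in short regions, the reversal does not show a lower density in strong ones. Away from gene ends the number per kb was 0.256 in the weakest decile and 0.239 in the strongest, and at gene ends 0.150 and 0.142. Regions at gene ends made up 6.45% of the weakest decile and 46.1% of the strongest. The gene end odds ratio was 2.12 within 5 kb and 6.36 at gene starts. With FOS intervals overlapping the promoter window, in place of the summit inside it, 26.97% of windows held TGANTCA. Where the cause of a move is not part of the alternative itself, the cause was not tested.

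Leaving out each replicate gave acetylated shares of 65.0 to 79.7%, decile differences of 17.2 to 27.1 points, gene end odds ratios of 3.88 to 4.61, rho values of 0.105 to 0.159, summit distances of 328 to 342 bp, width ratios of 1.28 to 1.32, region differences of 37.0 to 44.4 points and MYRF odds ratios of 1.35 to 2.30. No paired analysis was possible because these values come from no test across samples and a shared replicate number pairs no FOS with an H3K27ac library in the labels. Of 66 recomputed ranks of the named sites, 40 stayed within their replicate spread, and none moved by over 2.57 points. The unknown depth limits every absent peak: it was not called, which does not show that the mark is absent.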

Other observations

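H3K27ac at FOS sites was also read in the MYRF knockout clone, where FOS was not mapped. Of the 18708 acetylated FOS sites, 17175 had an H3K27ac peak of both knockout libraries (91.8%) and 320 of neither (1.71%). Among acetylated sites of the strongest FOS decile 96.0% had both, and of the weakest 89.6%. Of the 4835 sites without H3K27ac in the control clone, 157 had a peak of both knockout libraries (3.25%). The BHLHE23 site, strongest of all by FOS, had none in either clone, and neither had those near LOC124902536 and in NPAS4. Clone and MYRF cannot be told apart in these shares.

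By chromosome, the acetylated share of FOS sites ran from 62.7% on chromosome 4 to 81.8% on chromosome 22, with a median of 72.2% over 23 chromosomes. Around gene starts, 807 of 1616 FOS summits within 1 kb lay before the start (49.9%). In the top 2 deciles of FOS rank it was 122 of 195 (62.6%) and in the bottom 2 it was 192 of 414 (46.4%).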
